A study of Canis lupus familiaris with 7 samples.

Results

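The S100 proteins are a family of small calcium-binding proteins, and 10 of them were considered in canine osteosarcoma (OSA), a malignant tumor of bone-forming cells: S100A1, S100A4, S100A6, S100A8, S100A9, S100A10, S100A12, S100A13, S100A14 and S100B. Members were chosen by their exact gene symbol, and 8 of the 10 were analysed among the 24580 genes with values. S100A1, the S100 protein of striated muscle, and S100A10, a partner of annexin A2, were not analysed here. RNAseq had been carried out on total RNA of 4 samples of non-tumor bone (N1, N3, N8 and N9, grossly non malignant bone taken next to a tumor) and on 3 of OSA tumor (T1, T3 and T10), all from dogs treated by amputation or sampled just after euthanasia. No group carried an experimental treatment or an engineered allele, and breed, sex and age are not given per sample in the labels. The labels call the tissue matched but do not say which samples share a dog, so the p-values measure the spread between these 7 specimens.

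Most S100 proteins are dimers that bind calcium through EF-hand motifs, expose a hydrophobic face and then bind a target protein. S100A8, S100A9 and S100A12 are stored in large amounts in the cytoplasm of neutrophils and monocytes, and outside the cell they act as alarm signals through receptors such as RAGE and TLR4. S100A4, S100A6 and S100A13 are made by mesenchymal and many other cells and are studied in tumors for their links to cell motility and secretion, whereas S100B is best known from glia and is also made by cartilage and fat cells.

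Levels are in FPKM, that is, fragments relative to the length of the transcript and the size of the library, so that genes are compared with each other per length. The FPKM of a sample summed to between 539648 and 1752340 and 11995 to 12624 genes reached 1 FPKM. Relative to N1, the fragments that make up 1 FPKM ranged from 0.544 in N8 to 1.44 in T10, as read from the steps between the lowest values. The 7 osteoblast markers with values, which should mark bone, summed to 7419, 1674, 161 and 492 FPKM in N1, N3, N8 and N9, and to 12482, 1924 and 3122 in T1, T3 and T10. N8 was thus the sample with the lowest bone markers, and skeletal muscle markers, which should be low in bone, were highest in N8 and N9 (108260 and 81477 FPKM summed over 13 genes, against 15.5 to 1497 in the other 5 samples, with CKM listed at 0 in N9). N8 and N9 were kept under their label as non-tumor bone, and members past the threshold were also counted without them. Because whole tissue was sequenced, fewer cells of a type and less RNA per cell cannot be told apart in any of the levels given here.

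In the comparison of OSA tumor with non-tumor bone, S100A9, S100A12 and S100B were lower (log2 fold changes of -4.34, -4.24 and -2.26) and S100A6 was higher (1.89) in the tumors. S100A8 and S100A4 lay just outside the threshold, and S100A13 and S100A14 were further from it. Fold changes are differences of the mean log2(FPKM + 1), tumor minus non-tumor, which understate the change of genes near 0 FPKM. A gene was past the threshold when the absolute log2 fold change was at least 1 and the unadjusted p of limma was under 0.05. All 8 members had a mean level above the filter of 1 FPKM, S100B only through its non-tumor levels. By that threshold 4 of the 8 members were called, 1 of them higher and 3 lower. Of all 13507 genes tested, 6.86% were called, 3.28% higher and 3.58% lower in OSA tumor. No member kept an adjusted p under 0.05 after the Benjamini-Hochberg adjustment of the limma p-values (0 of 8, lowest 0.693), and neither did any of the 13507 genes, of which 927 had an unadjusted p under 0.05. The median log2 fold change was -1.28 over the 8 members and -0.02 over all genes tested.

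**Figure D1:**
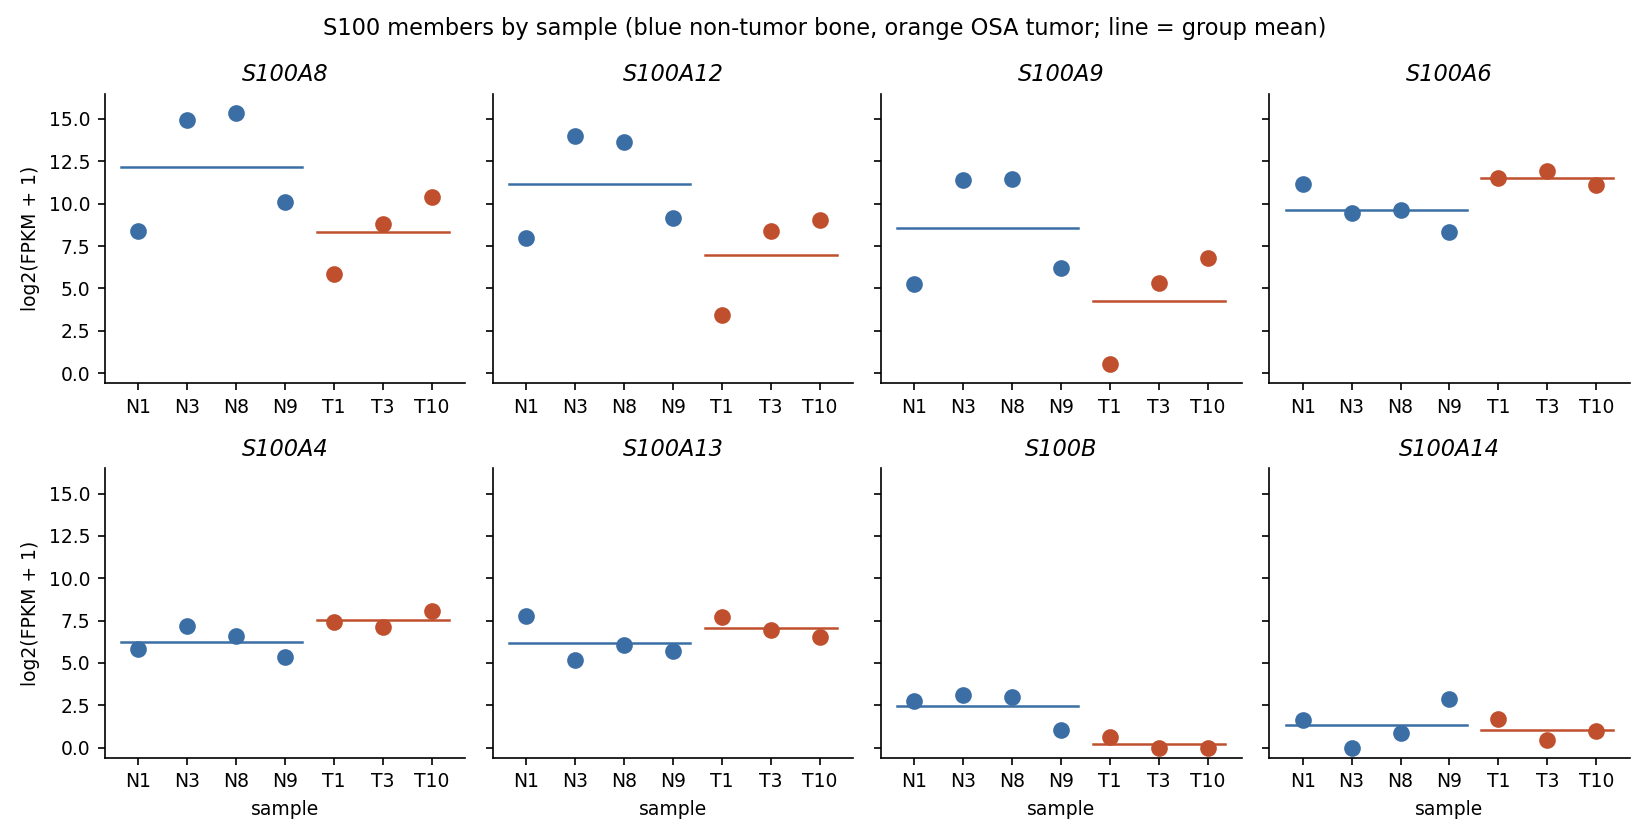
Level of each S100 member in each sample, with the sample on the x axis and log2(FPKM + 1) on the y axis; points are single samples (blue non-tumor bone, orange OSA tumor) and lines are group means. S100A8, S100A12 and S100A9 stand high in N3 and N8 and lowest in T1, while S100A6 is lowest in N9 and S100B is near 0 in the 3 tumors.

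S100A8, which forms the calprotectin complex with S100A9, was among the most abundant transcripts of some non-tumor samples. Its level was 327, 31438, 42473 and 1091 FPKM in N1, N3, N8 and N9. In the tumors it was 56.3, 441 and 1335 FPKM in T1, T3 and T10. N3 and N8 stood far above the other 5 samples, and the tumor T10 lay above the non-tumor samples N1 and N9, so the groups overlapped. The highest level was 129.8 times the lowest among the 4 non-tumor samples and 23.7 times among the 3 tumors. The means were 18832.5 ± 21409 FPKM in non-tumor (SD, n = 4) and 610.7 ± 656 in tumor (SD, n = 3). The log2 fold change was -3.85 (SE 1.83, 95% interval -7.97 to 0.26), with a limma p of 0.0632 and a Benjamini-Hochberg adjusted p of 0.693. S100A8 thus missed the threshold, though it passed when N1 (-5.13) or N9 (-4.55) was left out, when FPKM were rescaled to the same sum (-3.66), with sample weights (-4.86), and with the sample number as a replicate block, random (-3.98, limma p 0.0203) or fixed (-4.34, limma p 0.0341).

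S100A9, the partner of S100A8 in calprotectin, followed the same order of samples at a lower level. It was at 37.1, 2656.5, 2775 and 72.8 FPKM in N1, N3, N8 and N9, and at 0.46, 39.6 and 109.6 in T1, T3 and T10. Again N3 and N8 were high and T1 was low, while T3 lay between N1 and N9 and T10 above both. The means were 1385 ± 1537 FPKM in non-tumor (SD, n = 4) and 49.9 ± 55.3 in tumor (SD, n = 3). Its log2 fold change was -4.34 (SE 1.88, 95% interval -8.58 to -0.10), with a limma p of 0.0456 and an adjusted p of 0.693. The call was lost without N3 (-3.41), N8 (-3.39), T1 (-2.50) or T3 (-4.90), and without the filter on low genes (limma p 0.0718).

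S100A12, a secreted ligand of RAGE, was at 248, 16020.5, 12966 and 562 FPKM in N1, N3, N8 and N9. In the tumors its level was 9.57, 334 and 525 FPKM in T1, T3 and T10. N3 and N8 were high, T1 was low, and T3 and T10 lay between N1 and N9. The means were 7449 ± 8230 FPKM in non-tumor (SD, n = 4) and 289.6 ± 260.5 in tumor (SD, n = 3). In the fit across all genes the log2 fold change was -4.24 (SE 1.80, 95% interval -8.29 to -0.18), with a limma p of 0.0422 and an adjusted p of 0.693. The call was lost without N3 (-3.31), N8 (-3.41), T1 (-2.47) or T3 (-4.96), and without the filter (limma p 0.0698). In exact two-sided permutation tests over the 35 ways to assign the labels, which cannot give a p below 0.0571, the p was 0.286 for S100A8, 0.286 for S100A9 and 0.229 for S100A12.

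The 3 myeloid genes kept similar proportions to each other in 6 of the 7 samples. The ratio of S100A8 to S100A9, in FPKM, lay between 8.82 and 15.3 in every sample but T1, where it was 122.6. The ratio of S100A12 to S100A9 was 4.67 to 8.45 in those 6 samples and 20.8 in T1. S100A9 was at 0.46 FPKM in T1, so few fragments stand behind the ratios of that sample. S100A8 was above S100A12 in all 7 samples, by 1.32 to 5.88 times, and S100A12 was above S100A9 in all 7. Together the 3 genes made up 7.28% of all FPKM in N3 and 3.32% in N8, but 0.114% in N1, 0.132% in N9, 0.00593% in T1, 0.0903% in T3 and 0.338% in T10. Counted from the most abundant of the 24580 genes, S100A8 was in place 2 in N3 and 6 in N8, in place 164 in N1 and 102 in N9, and in place 1183, 214 and 47 in T1, T3 and T10.

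The summed granulocyte markers were highest in N3 and N8 and lowest in T1, as the myeloid S100 genes were, but T10 and T3 broke the order. The list was MPO, CTSG, LTF, CAMP, LCN2, MMP8, CSF3R, CXCR2 and PGLYRP1, granule and receptor genes of neutrophils and their precursors. Their summed level was 100.3, 10311, 9542 and 342.5 FPKM in N1, N3, N8 and N9. In the tumors it was 6.07, 75.3 and 31.3 FPKM in T1, T3 and T10, below all 4 non-tumor samples. The myeloid S100 sum of T10, by contrast, was above those of N1 and N9, and that of T3 (815 FPKM) was above that of N1 (612.5 FPKM). Single genes differed from the sum: MPO, CTSG, CAMP and PGLYRP1 were lowest in T10 and CXCR2 in T3. Of the 9 markers tested, 6 were past the threshold and lower, none was higher, and the median log2 fold change was -5.03, with a smallest adjusted p of 0.693 in limma. Only CTSG was listed at 0, in T10 alone. Erythroid markers, which also mark bone marrow, were high in N3 and N8 too (2739 and 4294 FPKM summed over 5 genes, 168 in N9, 6.52 in N1, and 3.31 to 72.3 in the tumors), and 3 of the 5 were past the threshold and lower. The filter was passed only through non-tumor levels by 2 of the 9 granulocyte and 2 of the 5 erythroid markers. With 1 sample left out, 4 (without T10) to 7 (without N1) granulocyte markers and 0 (without N8) to 5 (without N1) erythroid markers were called, the latter count being 1 without N3, T1, T3 or T10. The part of these cells in the levels of the myeloid S100 genes was not tested.

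**Figure D2:**
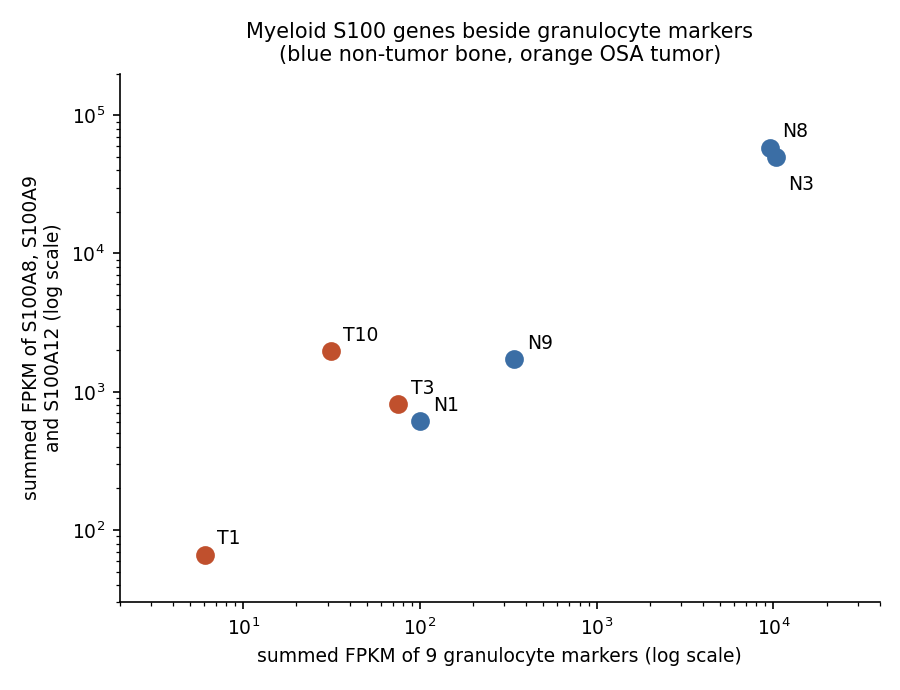
Summed FPKM of S100A8, S100A9 and S100A12 (y axis, log scale) against the summed FPKM of 9 granulocyte markers (x axis, log scale), 1 point per sample (blue non-tumor bone, orange OSA tumor). N3 and N8 lie together at the top right and T1 at the bottom left. T10 and T3 have more myeloid S100 (1969 and 815 FPKM) than N1 (612.5 FPKM) with fewer granulocyte markers (31.3 and 75.3 against 100.3 FPKM).

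S100A8 was also set beside single neutrophil genes. CAMP, which encodes a cathelicidin stored in neutrophil granules, was at 43.7, 4893.5, 4753 and 157 FPKM in N1, N3, N8 and N9, and at 0.188, 44.6 and 0.125 in T1, T3 and T10. The ratio of S100A8 to CAMP was 6.42 to 8.94 in the 4 non-tumor samples and 9.88 in T3, but CAMP was near 0 in T1 and T10, where few fragments stand behind it and the ratios, 300.3 and 10639, are uncertain. CSF3R, the receptor for granulocyte colony-stimulating factor, gave S100A8 ratios of 158.7 to 1335.5 in non-tumor samples and of 75.9 to 176 in tumors. In T10 the receptor genes CSF3R (17.6 FPKM) and CXCR2 (7.44 FPKM) were at levels above those of N1 (2.06 and 0.138 FPKM), while MPO, a granule enzyme made early in neutrophil development, was at 0.0608 FPKM against 1.46 in N1. Macrophage markers did not separate the groups: none of 9 was past the threshold in limma, although 3 were without N9, and their summed FPKM ranged from 60.0 to 1013 in non-tumor and from 183 to 574 in tumor.

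S100A6, or calcyclin, a partner of annexins, was the mesenchymal member with the highest level. It was at 2245, 696, 776 and 322 FPKM in N1, N3, N8 and N9. In the tumors it was at 2920, 3967 and 2184 FPKM in T1, T3 and T10. The 3 tumors were above N3, N8 and N9, and N1 lay within the tumor range, just above T10. The means were 1009.5 ± 847 FPKM in non-tumor (SD, n = 4) and 3024 ± 896 in tumor (SD, n = 3). Tumor exceeded non-tumor by a log2 fold change of 1.89 (SE 0.81, 95% interval 0.08 to 3.71), with a limma p of 0.0428, an adjusted p of 0.693 and an exact permutation p of 0.114. Of the 7 fits that left out a sample, only the one without N1 (2.39) called S100A6, which was lost without N3 (1.83), N8 (1.88), N9 (1.46), T1 (1.90), T3 (1.68) or T10 (2.10). The call was also lost when FPKM were rescaled to the same sum (2.09), without the filter, with either a pseudocount of 0.01 or a filter of 1 FPKM in at least 3 samples (1.89 in each), and with the sample number as a fixed replicate block (1.44, limma p 0.493). It held place 19 to 33 among all genes in the tumors and 27 to 319 in the non-tumor samples.

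S100A4, known for its binding to nonmuscle myosin and its link to metastasis, was at 56.1, 144, 96.9 and 39.8 FPKM in N1, N3, N8 and N9. The tumor levels were 170, 137 and 262 FPKM in T1, T3 and T10. N3 was the only non-tumor sample within the tumor range, just above T3. The means were 84.2 ± 46.5 FPKM (SD, n = 4) and 189.6 ± 65.2 (SD, n = 3). Its log2 fold change was 1.28 (SE 0.58, 95% interval -0.02 to 2.57), with a limma p of 0.0532, an adjusted p of 0.693 and an exact permutation p of 0.114, so S100A4 was not past the threshold. It was positive in each of the 7 fits that left out a sample (0.98 to 1.59) and passed the threshold in 1 of them, without N3 (1.59), as it also did without the filter (1.28) and with a pseudocount of 0.01 (1.29).

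S100A13, which takes part in the release of FGF1 and IL1A from cells, was at 221, 35.4, 66.5 and 51.8 FPKM in N1, N3, N8 and N9. It was at 209, 120 and 92.4 FPKM in T1, T3 and T10. N1 held the highest level of all and the other 3 non-tumor samples were below every tumor. Its log2 fold change was 0.86 (SE 0.68, 95% interval -0.66 to 2.39), with a limma p of 0.233 and an adjusted p of 0.768. S100A13 passed the threshold only without N1, at 1.40.

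N1 was thus the non-tumor sample that lay within the tumor range in S100A6 and above it in S100A13, and the summed fibroblast and chondrocyte markers were also higher in N1 than in N3, N8 and N9, though not every gene of these lists was. VIM, the vimentin gene of mesenchymal cells, was at 1155 FPKM in N1 and at 191 to 452 in N3, N8 and N9, against 1066 to 1227 in the tumors. All 10 fibroblast markers had a positive log2 fold change (median 1.76), but only FN1, the fibronectin gene, was past the threshold. Summed over the 10 genes, fibroblast markers were at 4483 FPKM in N1 and at 777 to 885 in the other non-tumor samples, and at 1965 to 9126 in the tumors. Of 7 osteoblast markers none was past the threshold (median 1.54). Chondrocyte markers summed to 302 FPKM in N1, 11.02 to 32.4 in the other non-tumor samples and 124 to 807 in the tumors, and 2 of the 6 tested, ACAN and SOX9, were past the threshold and higher. With 1 sample left out, the fibroblast count was 5 without N1 or T3, 2 without T10 and otherwise 1, the osteoblast count 4 without N1, 1 without T3 and otherwise 0, and the chondrocyte count 5 without N1, 3 without T3, 2 without T10 and otherwise 1. The part of these cells in the levels of S100A4, S100A6 and S100A13 was not tested.

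S100B was lower in every tumor than in every non-tumor sample. It was at 5.66, 7.65, 7.08 and 1.04 FPKM in N1, N3, N8 and N9, at 0.562 in T1, and listed at 0 in T3 and T10. It was the only one of the 8 members whose groups did not overlap, against 5.85% of all genes tested. Its log2 fold change was -2.26 (SE 0.62, 95% interval -3.66 to -0.85), with a limma p of 0.00527, an adjusted p of 0.693 and an exact permutation p of 0.0571, the smallest the design allows. S100B was called in all 7 fits that left out a sample (-2.74 to -2.05). N9, the lowest non-tumor sample, was nearer to T1 than to the other 3 non-tumor samples.

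Levels of S100B were low, and the cells known to make it were compared by their own markers. Chondrocyte markers ran opposite to S100B, and all 6 tested had a positive log2 fold change (median 2.6). Of these, 2 were past the threshold and higher, or 1 to 5 with 1 sample left out. Of the Schwann cell genes, none of the 3 tested, NGFR, PRX and ERBB3, was past the threshold, though 1 was without N1 and 1 without T3. Summed over 7 genes the Schwann cell list reached 4.41 to 10.1 FPKM in non-tumor and 2.48 to 15.9 in tumor, so the groups overlapped. All 3 adipocyte markers tested, PLIN1, CIDEC and LPL, were past the threshold and lower, with a median log2 fold change of -2.36, though PLIN1 and CIDEC passed the filter only through their non-tumor levels. With 1 sample left out the count was 3 without N1, 2 without T3 or T10, and 1 without N3, N8, N9 or T1. The 4 adipocyte genes summed to 26.8, 158, 92.7 and 194 FPKM in N1, N3, N8 and N9, and to 22.3, 9.82 and 44.5 in T1, T3 and T10. Skeletal muscle markers were past the threshold and lower for 13 of 13 genes (median log2 fold change -7.15, with 8 called without N8 or T10 and 9 without T1) with N8 and N9 far above the others, and 7 of the 13 passed the filter only through their non-tumor levels. The part of any of these cells in the level of S100B was not tested.

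S100A14, a member found mainly in epithelia, was at less than 10 FPKM in every sample. It was at 2.06 FPKM in N1, listed at 0 in N3, and at 0.807 in N8 and 6.45 in N9, against 2.23, 0.361 and 0.976 in T1, T3 and T10. Neither group stood above the other. The log2 fold change was -0.30 (SE 0.73, 95% interval -1.95 to 1.34), with a limma p of 0.690 and an adjusted p of 0.938, and its sign turned positive without N9 (0.22) and with a pseudocount of 0.01 (0.70). None of the 3 epithelial markers tested was past the threshold, and the list summed to 2.53 to 16.1 FPKM in non-tumor and 4.51 to 49.6 in tumor, with the highest sum in T3.

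**Figure D3:**
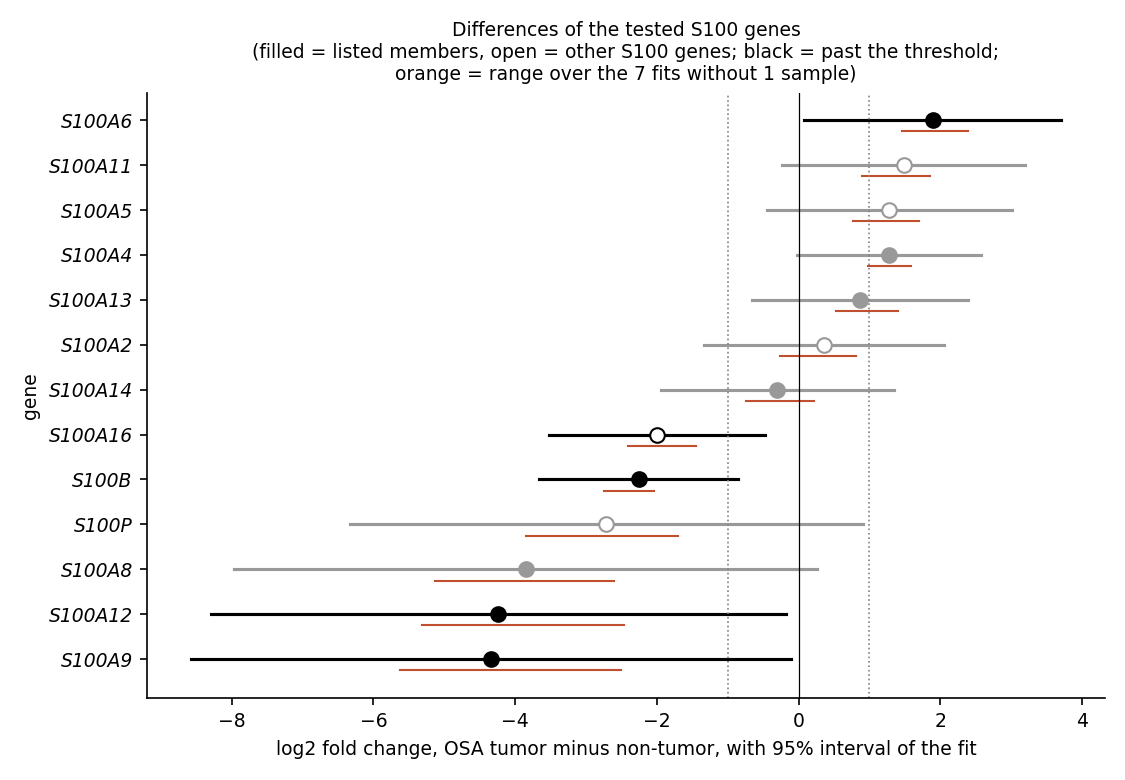
Log2 fold change (x axis, OSA tumor minus non-tumor) of the 13 tested S100 genes (y axis), with the 95% interval of the limma fit. Filled points are listed members, open points other S100 genes, black marks genes past the threshold, and orange bars span the 7 fits without 1 sample. S100A8, S100A9 and S100A12 have the widest intervals, S100B the largest distance from 0 relative to its interval.

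Myeloid and mesenchymal members were then set side by side within each sample, where the scale of the library nearly cancels. The mean log2(FPKM + 1) of S100A8, S100A9 and S100A12 minus that of S100A4, S100A6 and S100A13 was -1.06, 6.16, 6.06 and 2.01 in N1, N3, N8 and N9. The same difference was -5.62, -1.15 and 0.18 in T1, T3 and T10. The myeloid genes led in N3, N8, N9 and, by little, T10, and the mesenchymal genes led in N1, T1 and T3, so the groups overlapped through N1. The means of the difference were 3.29 ± 3.49 in non-tumor (SD, n = 4) and -2.20 ± 3.04 in tumor (SD, n = 3), which is 5.49 lower in tumor, or 5.67 lower with a pseudocount of 0.1, given as a description with no test. As a share of the summed FPKM of the 8 members, the 3 myeloid genes made up 19.5%, 98.3%, 98.4% and 80.4% in N1, N3, N8 and N9 and 1.97%, 16.2% and 43.7% in T1, T3 and T10. The mean log2 level of the myeloid genes spanned 7.19 to 13.49 in non-tumor and 3.26 to 8.74 in tumor, while that of the mesenchymal genes spanned 6.47 to 8.25 in non-tumor and 8.56 to 8.88 in tumor. As deposited, the mesenchymal mean thus did not overlap between the groups, although each of its 3 genes did. The gap was small (8.25 in N1 and 8.56 in T10), and 5.85% of all genes tested did not overlap either. Unlike the difference, this mean depends on the scale of the library, and N1 had the lowest FPKM sum (539648). Rescaling to the same sum raises N1 the most, and the separation was not tested under other scalings.

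**Figure D4:**
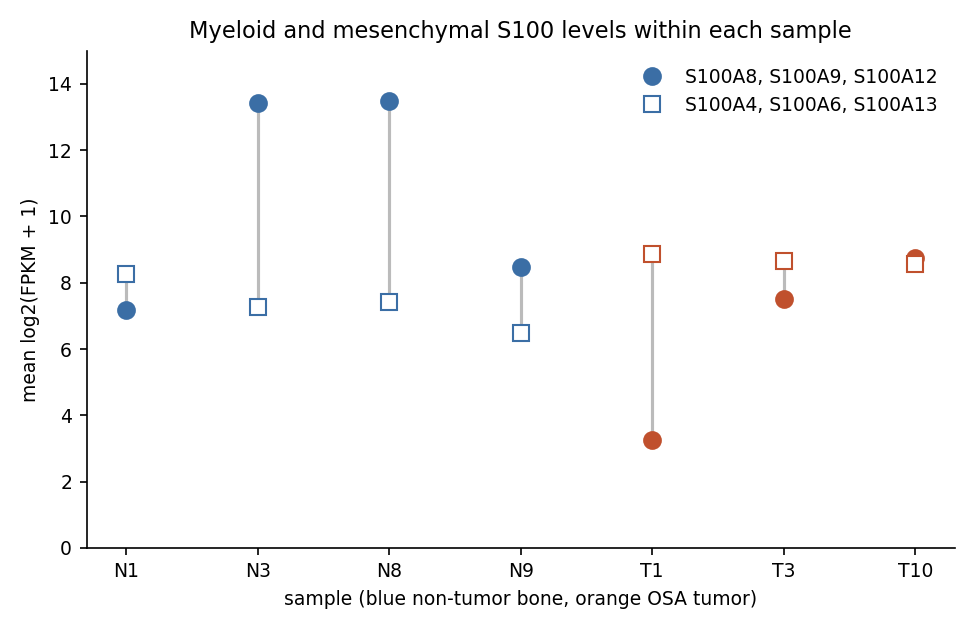
Mean log2(FPKM + 1) (y axis) of the 3 myeloid members (filled circles) and the 3 mesenchymal members (open squares) in each sample (x axis, blue non-tumor bone, orange OSA tumor), joined by a line. The circle is far above the square in N3 and N8 and far below it in T1, and both meet in T10.

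The directions of the members were set against the scaling of the libraries. After every sample had been rescaled to the same FPKM sum, the median log2 fold change of all genes moved from -0.02 to 0.12, and 64.5% of the called genes were lower against 52.2% as deposited. The share was 49.7% with median ratio scaling and 45.2% after quantile normalization. After rescaling to the same sum 4 of the 8 members were again called, all of them lower: S100A8, S100A9, S100A12 and S100B. Apart from S100A14, no member changed sign under any of the 19 alternatives. Without both N8 and N9, an alternative chosen after the muscle markers had been seen, only S100B of the 8 members was called, S100A9 being at -4.09 (limma p 0.134), S100A12 at -4.02 (limma p 0.130) and S100A6 at 1.23 (limma p 0.271).

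The myeloid members are neighbors on the genome. In CanFam3.1, S100A6 (ENSCAFG00000017553) lies at chr7:43502396-43502997, S100A8 (ENSCAFG00000017557) at chr7:43540667-43541864, S100A12 (ENSCAFG00000023324) at chr7:43554066-43555606 and S100A9 (ENSCAFG00000029470) at chr7:43565980-43569673. The gap from S100A6 to S100A8 is 37669 bp, that from S100A8 to S100A12 is 12201 bp and that from S100A12 to S100A9 is 10373 bp. S100A6, next to the myeloid genes, differed in the opposite direction from all 3 of them. S100A4 (ENSCAFG00000017550), S100A13 (ENSCAFG00000017542) and S100A14 (ENSCAFG00000017544) are given 1 shared interval, chr7:43326709-43501012, with 12 genes in it, 7 of them S100 genes, so their own positions and any sharing of reads between them are uncertain. S100B (ENSCAFG00000012228) lies apart at chr31:39784915-39786667.

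Genes with the profile most like that of a member were found among 11850 genes with a symbol and a mean of at least 1 FPKM, by the root mean square difference of the centred log2(FPKM + 1) values over the 7 samples. For S100A8 the nearest were S100A9 (0.65), S100A12 (0.68) and S100P (0.70), where the SD of the profile of S100A8 itself was 3.23. For S100A12 they were S100A9 (0.30), S100A8 (0.68) and HBA, a hemoglobin alpha chain (0.98) whose reads may be shared with near-identical copies. The 3 nearest genes of S100A8 thus all belonged to its own family, and S100P lies on another chromosome (chr3:58804790-58807189). Among the genes nearest to S100A6 were MAPK8IP1 (0.37) and SHMT2 (0.37), against a profile SD of 1.22. For S100B they were NBEAL2 (0.45), GCA (0.46) and NNAT (0.48), against a profile SD of 1.30. With 7 samples these are descriptions of likeness and carry no test.

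**Figure D5:**
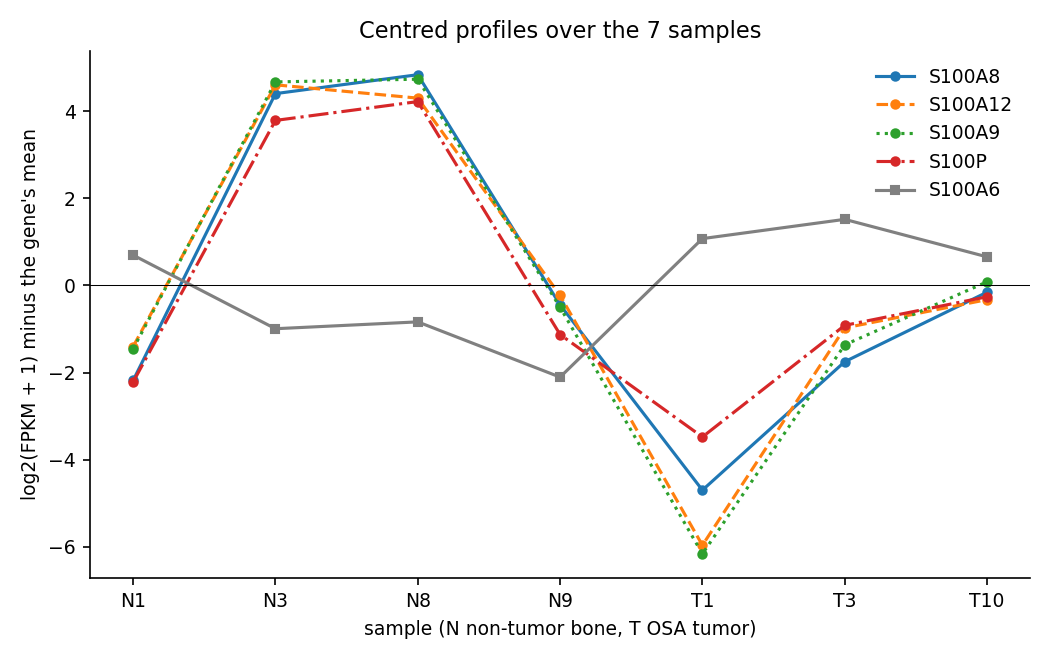
Log2(FPKM + 1) minus the mean of the gene over the samples (y axis) for S100A8, S100A12, S100A9, S100P and S100A6, by sample (x axis, N non-tumor bone, T OSA tumor). The 4 colored lines peak together in N3 and N8 and are lowest in T1, and the grey line of S100A6 is lowest in N9 and highest in T3.

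The other S100 genes with values were S100A2, S100A3, S100A5, S100A11, S100A16, S100G and S100P. Of these, 5 were tested and 1 was called, against 6.86% of all genes tested. That gene was S100A16, at 3.68, 8.41, 19.7 and 15.4 FPKM in N1, N3, N8 and N9, against 3.62, 2.59 and 0.282 in T1, T3 and T10. The groups did not overlap, though N1 and T1 were nearly equal, and the log2 fold change was -1.998 (SE 0.68, limma p 0.0156, adjusted p 0.693). S100A16 was lost without N8 (-1.70) or T10 (-1.44), without both N8 and N9 (-1.26), and with the fixed replicate block (-0.70, limma p 0.320). Like S100A2, S100A3 and S100A5, it is given the interval on chromosome 7 that 12 genes share, so any sharing of reads is uncertain for it too.

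S100P followed the myeloid members. Its level was 22.8, 1525, 2058 and 49.6 FPKM in N1, N3, N8 and N9, and 8.93, 57.6 and 91.3 in T1, T3 and T10. The log2 fold change was -2.72 (SE 1.61, limma p 0.124) and was not past the threshold, which it passed without N1 (-3.84), with sample weights (-3.77) and with the sample number as a fixed replicate block (-2.98). It was smaller in size without N8 (-1.70), T1 (-1.75) or N3 (-1.84). S100A8 was 14.4 to 22.0 times as high as S100P in non-tumor, per length, and 6.31 to 14.6 times in tumor.

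S100A11, a partner of annexin A1, followed S100A6 in direction. It was at 523, 575, 493 and 105 FPKM in N1, N3, N8 and N9, and at 596, 1206 and 1347 in T1, T3 and T10. The groups did not overlap, but the gap between N3 and T1 was small. The log2 fold change was 1.48 (SE 0.76), with a limma p of 0.0823 and an exact permutation p of 0.0571, so S100A11 was not past the threshold. With 1 sample left out the change ranged from 0.90 (without N9) to 1.85 (without T1), and it was 0.63 with the fixed replicate block. S100A2 (log2 fold change 0.36) and S100A5 (1.28) had levels under 10 FPKM in every sample and were not past the threshold, and the sign of S100A2 turned without T1 (-0.26) or N8 (-0.05). S100A3 was listed at 0 in all 7 samples and S100G, an intestinal calcium-binding protein, reached at most 0.0695 FPKM.

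Genes that work with the S100 proteins were taken from a list of 28 symbols, of which 26 had values. Of 26 rows tested, 5 were past the threshold, against 6.86% of all genes, 2 of them higher and 3 lower, and the median log2 fold change was -0.64. Annexins gave the 2 higher genes. ANXA2, the annexin that binds S100A10 and S100A4, was at 168, 170, 92.7 and 76.7 FPKM in N1, N3, N8 and N9, and at 319, 765 and 586 in T1, T3 and T10. Every tumor was above every non-tumor sample, and the log2 fold change was 2.12 (SE 0.57, limma p 0.00464, adjusted p 0.693), called in all 7 fits that left out a sample but not with the sample number as a fixed replicate block (1.54, limma p 0.112). A further row named ANXA2, on chromosome 12, was listed at 0 throughout.

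ANXA1, the partner of S100A11, was at 94.96, 186, 131 and 43.9 FPKM in N1, N3, N8 and N9, and at 143, 1169 and 1131 in T1, T3 and T10. T3 and T10 were far above the rest, while T1 lay among the non-tumor samples, and the log2 fold change was 2.50 (SE 0.85, limma p 0.0160, adjusted p 0.693). The call was lost without T3 (1.99) or T10 (2.01), without both N8 and N9 (2.10), and with the fixed replicate block (1.61). The other scaffold partners were not past the threshold, among them CACYBP, named for its binding to S100A6, which was at 15.2 to 37.0 FPKM in non-tumor and at 19.5, 135 and 46.1 in T1, T3 and T10.

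Receptors of extracellular S100 proteins were not past the threshold in any of 5 cases. AGER, which encodes RAGE, was at 0.647 to 4.29 FPKM in non-tumor and 0.531 to 4.05 in tumor (log2 fold change -0.20), and TLR4 at 1.38 to 17.9 and 1.53 to 8.23 FPKM (-0.71). LY96, BSG and CD36 had log2 fold changes of -0.21, -1.07 and -1.70. The 3 subunits of the phagocyte NADPH oxidase measured, an enzyme to which S100A8 and S100A9 deliver arachidonic acid, were not past the threshold either.

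Among the transcription factors of myeloid cells, only CEBPE, a factor of late granulocyte development, was past the threshold. It was at 0.281, 33.6, 44.4 and 1.84 FPKM in N1, N3, N8 and N9, and at 0.0749, 0.284 and 0.196 in T1, T3 and T10, with a log2 fold change of -2.88 (SE 1.19, limma p 0.0382, adjusted p 0.693). Like S100A8 it was high in N3 and N8, and it was called only without N1 (-3.80) or N9 (-3.42) among the fits that left out a sample, its range over all 7 being -3.80 to -2.08. CEBPE passed the filter on low genes only through its non-tumor levels, and its call was lost without that filter (limma p 0.0613) and with the fixed replicate block (-2.50). SPI1, CEBPA and CEBPB had log2 fold changes of -0.88, -0.85 and 0.10 and were not past the threshold.

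Targets of muscle S100 proteins were high in the same samples as the muscle markers. RYR1, the calcium release channel of skeletal muscle, was at 0.480, 3.01, 254 and 362 FPKM in N1, N3, N8 and N9, and at 0.152, 0.0376 and 0.317 in T1, T3 and T10. The groups did not overlap and the log2 fold change was -4.55 (SE 1.81, limma p 0.0320, adjusted p 0.693). ATP2A1, the calcium pump of fast muscle, was past the threshold as well (-5.74, limma p 0.0332, adjusted p 0.693), with 2823 FPKM in N8 and 3506 in N9 and at most 7.89 in the other samples, while ATP2A2 (-2.75) and TTN (-3.26) were not. With 1 sample left out, ATP2A2 and TTN were called only without N1 (-3.75 and -4.53) and were nearest to no change without N9 (-1.32 and -1.75). Among the fits that left out 1 sample, both RYR1 and ATP2A1 were called only without N1 (-5.95 and -7.08) or N3 (-5.47 and -7.37) and were lost without any other sample, for example without N9 (-3.30 and -4.20). Neither was called without the filter on low genes (limma p 0.0553 and 0.0566), with the fixed replicate block (-1.16 and -1.03) or without both N8 and N9 (-1.07 and -1.29). ATP2A1 was also lost with the random replicate block (-4.10, limma p 0.0603). RYR1 passed the filter on low genes only through its non-tumor levels. FGF1, SYT1 and IL1A, which are released with S100A13, were not past the threshold, and IL1A was at 0.269 to 15.7 FPKM in the tumors and at 0.469 to 1.01 in non-tumor.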

How the data were processed

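RNAseq of 7 samples was analysed, 4 non-tumor and 3 OSA tumor, grouped by their labels. The authors prepared stranded paired-end TruSeq libraries, used Trim Galore for trimming and Tophat2 for alignment to CanFam3.1 (Ensembl iGenomes annotation), and computed FPKM per gene and sample with Cufflinks/Cuffdiff. Those FPKM were used as deposited, zeros kept, with 0 per-sample columns unused. Tool versions, the scaling between libraries and any length correction for short transcripts, which could shift the FPKM of small genes such as the S100 family, are not given in the sources used here. From the authors' own comparison table (group FPKM, fold changes, test statistics, p and q values) only gene intervals were taken, with 1 added to starts counted from 0. No counts were at hand, so depth is known only relative to N1.

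Values were taken as log2(FPKM + 1), and 13507 of 24580 genes, those whose mean reached 1 FPKM, were tested (11073 left out). The test was that of limma 3.58.1 (R 4.3.3), moderated by empirical Bayes with a trend in the variance. Genes were called at a log2 fold change of 1 or more in size (2-fold) and an unadjusted p under 0.05. Adjusted p-values are Benjamini-Hochberg values over all tested genes. Exact permutation tests were two-sided over 35 assignments of the labels. Python 3.11.15, numpy 2.4.6, scipy 1.17.1, pandas 2.3.3 and matplotlib 3.10.9 were used, and the fit was tested on simulated data. Named genes were the members, every other S100 symbol, partner and marker genes by list, and the 3 genes nearest in profile to S100A8, S100A12, S100A6 and S100B. Some genes that these lists and this rule hold are not reported here by name. CAMP, MPO, CSF3R and CXCR2 were set beside S100A8 after their values were seen. Members and lists were chosen with earlier results of these data known. Alternatives were pseudocounts of 0.1 and 0.01, no filter, a filter of 1 FPKM in at least 3 samples, 3 other scalings, no trend, sample weights, the sample number as a block, each sample left out, and N8 and N9 left out together. Protein identity and promoter motifs had been planned and were not run, because no sequences were used here.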

Additional observations from a re-analysis of the deposited data

Results flagged for a closer look

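One value stood apart within its group. S100A11 was at 104.7 FPKM in N9, against 493 to 575 FPKM in the other 3 non-tumor samples, and on the log2(FPKM + 1) scale the gap below the others took up 0.910 of the range of the group, above the critical value of Dixon's test for 4 samples. On the FPKM scale the share was 0.826, just below that value, so the mark depends on the scale. S100A13 in N1 (221 FPKM, above the other 3) was past the critical value on the FPKM scale alone (0.832, against 0.658 on the log2 scale). The test was run for 13 S100 genes in the non-tumor group, and chance marks about 1 group in 20. N9 was also the non-tumor sample with the lowest S100A4, S100A6 and S100B.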

How the results depend on the processing

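The log2 fold changes of S100A8, S100A9, S100A12, S100A4, S100A6, S100A13 and S100B kept their sign under all 19 alternatives, and S100B kept its call in all of them. The call of S100A6 is the least settled, as given in the report. The 4 members called became 2 without the filter, 1 without N8 and N9, and 1 to 6 when a sample was left out (1 without N8, T1 or T3, 2 without N3, 6 without N1). The 926 genes called became 1857 with sample weights, 184 without N8 and N9, and 319 (without N8) to 1997 (without N1) with a sample left out (603 without T3, 424 without T10). The 1 other S100 gene became 2 with sample weights, 0 without N8 and N9 and 0 to 2 with a sample left out (0 without N8 or T10, 2 without N1). The 5 partner genes became 2 without the filter, 1 without N8 and N9, and 1 (without T3 or T10) to 9 (without N1) with a sample left out. S100A14 turned positive with a pseudocount of 0.01 (0.70), without N9 (0.22) and without N8 and N9 (0.23), its range with a sample left out being -0.75 to 0.22, and S100A2 turned negative without N8 (-0.05), without T1 (-0.26) and without N8 and N9 (-0.51), with a range of -0.26 to 0.81. The cause was not tested.

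The sample number as a replicate block gave 1062 genes and 5 members as a random effect, and 241 genes, 4 members and 0 partner genes as a fixed effect. Under the fixed block the 4 members were all lower, S100A8 (-4.34) having joined and S100A6 (1.44) having been lost, and S100A16 (-0.70) was lost as well, with S100A14 at 0.26 and S100A2 at -0.12 under the fixed block. The deviations from the group means of samples sharing a number correlated at 0.42 (number 1) and 0.21 (number 3), and with 2 shared numbers this does not show that they pair. An adjusted p under 0.05 was reached by no S100 gene under any alternative, the lowest being 0.161 for S100A16, and for the 8 members the adjusted p ranged from 0.203 to 1. Of all genes, 3 reached it after rescaling to the same sum and 1 without T1. Depth is known only relative to N1, so no limit of detection can be given for genes near 0 FPKM such as S100B in the tumors.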
